A study of Homo sapiens with 27 samples.

Results

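The endoplasmic reticulum (ER) chaperones and the genes of the unfolded protein response form a set of 39 genes among the 58735 in the deposited tables, taken by gene symbol from a fixed list. All 39 were found in the tables of both cell lines. They comprise 10 lumenal chaperones and co-chaperones, 2 lectin chaperones, 10 members of the protein disulfide isomerase family, 6 genes of ER-associated degradation, 7 stress sensors and transcription factors, and 4 genes of the translocon, ER export and the ER membrane. Total RNA was sequenced in 27 libraries of 2 established lines of human hepatocellular carcinoma, HuH-7 (12 libraries) and JHH-7 (15), cultured with fetal bovine serum. The control of each line carried a non-targeting CRISPR guide (sgNTC; the labels give its genotype as WT). The knockouts carried guides against KLB (sgKLB), against FGFR4 alone (sgFGFR4) or with FGFR3 (sgFGFR3/4) and, among JHH-7 cells, against FGFR1 as well as both of these (sgFGFR1/3/4). KLB encodes beta-klotho, the co-receptor through which the hormone FGF19 acts on FGFR4. Each of the 9 groups held 3 libraries that the labels call biological replicates. The labels do not say whether a knockout was 1 clone or a pool of cells, nor how long after the guides RNA was taken.

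Secreted and membrane proteins fold in the ER lumen with the help of chaperones such as HSPA5 (BiP), lectin chaperones that read their sugar chains, and disulfide isomerases, and misfolded proteins are passed to the cytosol for degradation. When unfolded proteins build up, 3 sensors in the ER membrane respond. ERN1 (IRE1) is a kinase and endoribonuclease that splices XBP1 mRNA into the form that encodes the active transcription factor, ATF6 is cut in the Golgi to release a transcription factor, and EIF2AK3 (PERK) phosphorylates the translation factor eIF2 alpha, which raises ATF4. Hepatocytes carry a heavy secretory load, and XBP1 and CREB3L3 (CREBH), a liver-enriched factor released from the ER like ATF6, are also known for their roles in hepatic lipid metabolism. The values here are sums over the transcripts of a gene, so spliced and unspliced XBP1 mRNA cannot be told apart, and neither cleavage of ATF6 nor phosphorylation of any sensor was measured.

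ATF6 and XBP1 act on chaperone promoters through the ER stress response element, so the promoters of the members were searched for its letters. The RefSeq promoter table (GRCh38.p14, 250 bases before to 50 after each start) was matched by symbol for 36 members; ERP27, PDIA3 and SEC24D were not analysed in this way. The element ERSE (CCAAT and CCACG with any 9 bases between them, on either strand) was present in 7 members, namely HSPA5, HSP90B1, CRELD2, CALR, CANX, PDIA6 and XBP1, and in 25 of all 27305 genes of the table, or 0.092%. Its shorter form ERSE-II (ATTGG and CCACG with any 1 base between them) was present in HYOU1, SDF2L1 and HERPUD1 and in 19 genes of the table, or 0.07%. The XBP1-type element UPRE (TGACGTGG) was in 4 members, HYOU1, DNAJC10, TXNDC5 and TXNDC11, and in 0.927% of the table. The amino acid response element CARE (TGATGNAAN), the kind bound by ATF4, was in HERPUD1 and CREB3L2 and in 4.45% of the table. In HYOU1 the UPRE letters overlap the more distant ERSE-II. A match of letters is a description and not a binding site. HSP90B1 and CANX hold ERSE but are not shown. Stretches of 8 further promoters with ERSE or ERSE-II are shown because the mRNA levels of these genes, given further on, moved in different directions. They are written 5′ to 3′ on the strand of the gene, with the fixed letters of ERSE or ERSE-II in capitals. On GRCh38.p14 they lie at chr9:125241366-125241434 (HSPA5, minus strand), chr19:12938359-12938427 (CALR, plus), chr22:49918529-49918597 (CRELD2, plus), chr2:10812848-10812876 (PDIA6, minus), chr22:28800598-28800626 (XBP1, minus), chr22:21642089-21642149 (SDF2L1, plus), chr11:119057249-119057415 (HYOU1, minus) and chr16:56932020-56932040 (HERPUD1, plus).
HSPA5: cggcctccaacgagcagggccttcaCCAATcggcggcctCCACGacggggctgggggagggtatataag
CALR: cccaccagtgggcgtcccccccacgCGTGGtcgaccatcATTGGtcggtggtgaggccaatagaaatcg
CRELD2: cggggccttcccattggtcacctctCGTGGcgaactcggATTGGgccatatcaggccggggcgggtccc
PDIA6: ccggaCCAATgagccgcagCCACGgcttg
XBP1: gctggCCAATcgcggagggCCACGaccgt
SDF2L1: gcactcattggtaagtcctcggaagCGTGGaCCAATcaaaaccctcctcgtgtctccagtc
HYOU1: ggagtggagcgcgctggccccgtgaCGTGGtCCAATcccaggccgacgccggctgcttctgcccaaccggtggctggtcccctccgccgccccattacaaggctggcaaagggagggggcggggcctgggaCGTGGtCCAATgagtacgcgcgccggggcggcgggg
HERPUD1: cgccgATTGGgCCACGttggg
HSPA5, PDIA6 and XBP1 hold the ERSE in the forward direction, CALR and CRELD2 hold it reversed, and HYOU1 holds ERSE-II reversed at 2 places.

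Levels are in FPKM, a unit that was read from the deposited values. FPKM counts fragments relative to transcript length and library size, so that levels can be compared between genes. Changes are differences of log2(FPKM + 1) ± SE, which understate the ratio for genes with low FPKM. Group levels are means ± SD over n = 3 libraries. A gene is said to have risen or fallen where limma's moderated test, two-sided and adjusted over all tested genes by Benjamini-Hochberg, gave an adjusted p under 0.05. The depth of a library was estimated at 14.1 to 27.8 M fragments. All 11 pairs of a targeted gene and a knockout had every knockout library below every sgNTC library, with means of 36.6% to 57.0% of sgNTC. All 9 hepatocyte markers had a mean of at least 1 FPKM in every group, while 2 or 3 of the 8 markers of leukocytes, endothelium and stroma did, and these summed to 24.2 to 85.1 FPKM per library. The 3 pairs of JHH-7 sgFGFR1/3/4 libraries differed by 1.57 to 1.98 times the estimated sampling variance, against 2.57 to 14.8 times in the other 24 pairs of replicates. Their correlations of log2 values (0.988 to 0.991) overlapped those of the other pairs (0.958 to 0.989). The FPKM sums of the sgFGFR1/3/4 libraries were close too, at 734381, 734376 and 734241. Whether these 3 libraries came from separate cultures was not tested, so their SDs and p-values may understate the spread between cultures.

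Libraries also differed in how strongly values tracked the GC content of genes. Measured as Spearman's correlation across genes between GC content and the deviation from the sgNTC mean, HuH-7 sgNTC 3 stood at 0.477 and sgNTC 1 and 2 at -0.377 and -0.217, and the HuH-7 sgFGFR4 libraries ran from -0.504 to -0.360. In JHH-7, sgNTC 2 stood at 0.495 against -0.315 and -0.312 in sgNTC 1 and 3, sgFGFR3/4 1 stood at 0.295, and the sgFGFR1/3/4 libraries ran from -0.419 to -0.397. For changes of members printed below, values with a correction for length and GC content are given where they differ by over 1.5 times. The part of this trend in the results was not otherwise tested. In bulk RNA, fewer cells with a transcript and less of it per cell cannot be told apart.

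All 39 members passed the filter on low values in each fit. In JHH-7, ERP27 passed only through the knockout groups, since its sgNTC libraries lie under 1 FPKM, and it is among the rises counted for each JHH-7 knockout. In sgNTC of HuH-7 the members spanned from CALR at 886 ± 53.7 FPKM, SEC61B at 558 ± 12.1 and P4HB at 552 ± 36.8 down to ATF6 at 4.74 ± 0.511 and ERP27 at 4.20 ± 0.447. In sgNTC of JHH-7 XBP1 was the highest member at 751 ± 39.2 FPKM, followed by CALR at 544 ± 10.7 and P4HB at 462 ± 33.6, and ERP27 was the lowest at 0.520 ± 0.0854. The SDs of SEC61B and P4HB overlap in HuH-7, so their order is not separated.

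With the KLB guides in HuH-7, 17 members passed, 4 up and 13 down, where 17.6% of all 14716 tested genes passed (8.98% up, 8.62% down). Apart from SEC61B, the falls were chaperones and disulfide isomerases: 7 of the 10 lumenal chaperones fell and none rose, with a median change of -0.42 over the 10 against 0.02 over all genes. With sgFGFR4 in HuH-7, 1 member rose and 5 fell (2.07% and 1.64% of all genes, 3.71% together). With sgFGFR3/4 in HuH-7, 2 rose and 13 fell (8.9% and 7.22%, 16.1% together). Values scaled to TPM instead moved the median of all genes from 0.06 to 0.14 for sgFGFR4 and from 0.07 to 0.17 for sgFGFR3/4, and gave 3 rises and 4 falls of members for sgFGFR4 (3.21% and 0.89% of all genes) and 5 rises and 8 falls for sgFGFR3/4 (15.2% and 4.34%). The HuH-7 sgFGFR4 counts turned on single libraries, for members and for all genes. Without sgNTC 1, 12 members and 8.36% of all genes were called, and without any other 1 of sgNTC 2, sgNTC 3 and sgFGFR4 1, 2 or 3, limma called 0 members and 1 to 4 genes in all. None of the 6 sgFGFR4 calls was made with no filter, with a replicate block or when only the groups compared were fitted. SDF2L1 and MANF were also lost with quantile scaling and with the correction for length and GC content, CALR with quantile scaling and MANF with TPM scaling. Of the other HuH-7 calls, HSP90B1 and TXNDC5 for sgKLB and DNAJB11, TXNDC5, SEC61B and WFS1 for sgFGFR3/4 were lost with TPM scaling, with quantile scaling and when only the groups compared were fitted.

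In JHH-7 the KLB guides moved 8 members up and 10 down, where 15.5% of all 14987 tested genes rose and 16.4% fell (31.9% together). Guides against FGFR1, FGFR3 and FGFR4 moved 14 up and 10 down (20.8% and 19% of all genes), so 24 of the 39 members passed where 39.8% of all genes did. Of the 10 lumenal chaperones 6 rose and 1 fell in JHH-7 sgFGFR1/3/4, while 5 of the 7 sensors and factors fell and none rose. With sgFGFR4 in JHH-7, 2 members rose and 5 fell (2.42% and 1.83%, 4.25% together), and with sgFGFR3/4, 2 rose and 4 fell (2.24% and 1.29%, 3.53% together). The JHH-7 sgFGFR4 count of 7 members was 4 without sgNTC 1, 2 without sgNTC 2, 2 without sgFGFR4 1 and 3 without sgFGFR4 2, where 2.81%, 1.85%, 1.49% and 1.79% of all genes were called. Fitting only the groups compared called 0 members for sgFGFR4 and for sgFGFR3/4 (0.638% and 0.94% of all genes). With no filter on low values ERP29 and SEL1L for sgKLB, ERP27 and ERN1 for sgFGFR4 and ERP27 and ATF6 for sgFGFR3/4 were not called. Comparisons within a line share their sgNTC libraries, so their counts are not independent of each other.

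**Figure D1:**
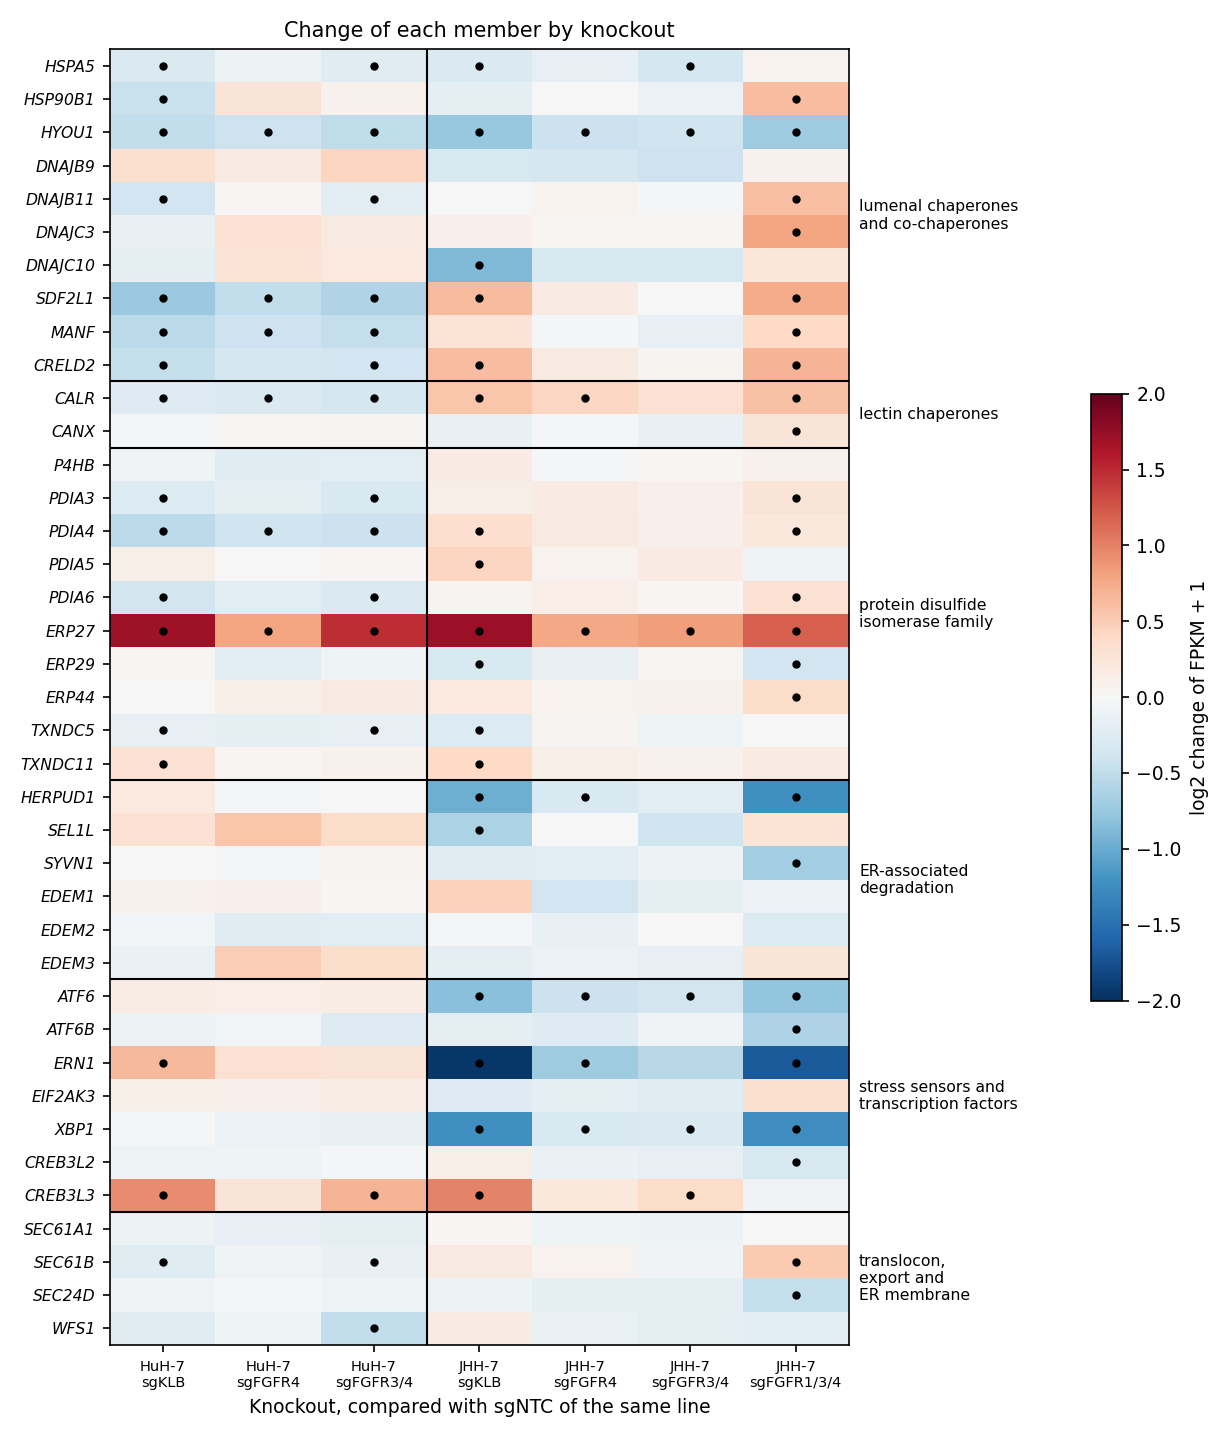
Colour shows the change of each of the 39 members (rows, grouped by role) in each knockout against sgNTC of its line (columns), as the difference of mean log2(FPKM + 1); dots mark adjusted p under 0.05 in limma's test. The chaperone rows are mostly blue in HuH-7 sgKLB and mostly red in JHH-7 sgFGFR1/3/4, ERN1, XBP1, ATF6 and HERPUD1 are blue in the JHH-7 columns, and ERP27 is red in every column.

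Among the sensors, ERN1 (GRCh38 chr17:64039142-64130819, minus strand), the sensor kinase of the splicing branch, went up in one line and down in the other. The HuH-7 sgNTC libraries read 7.99, 7.67 and 6.93 FPKM and the sgKLB libraries 11.6, 10.2 and 15.9. Each sgKLB library was above each sgNTC library, a 1.67-fold ratio of means (log2 change 0.65 ± 0.155, adjusted p 0.0126). All HuH-7 libraries of sgFGFR4 and sgFGFR3/4 were above the control too, but the changes of 0.30 ± 0.155 and 0.26 ± 0.155 did not pass (adjusted p 0.227 and 0.268). In JHH-7 the sgNTC libraries read 26.4, 24.2 and 25.6 FPKM, the sgKLB libraries 5.82, 6.03 and 5.81 and the sgFGFR1/3/4 libraries 6.74, 7.86 and 7.16. These knockouts lay far below the control, 4.32-fold lower with sgKLB (log2 change -1.94 ± 0.152, adjusted p 2.57e-07) and 3.51-fold lower with sgFGFR1/3/4 (-1.68 ± 0.152, adjusted p 1.52e-06). The other receptor knockouts lay in between and were more scattered, at 11.2, 17.2 and 18.1 FPKM with sgFGFR4 (log2 change -0.71 ± 0.152, adjusted p 0.0179) and 20.4, 14.8 and 16.1 with sgFGFR3/4 (-0.56 ± 0.152, adjusted p 0.0592). The sgFGFR4 call was lost without sgNTC 1 or 2 or 3 or sgFGFR4 1 (adjusted p up to 0.0694).

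XBP1 (GRCh38 chr22:28794555-28800597, minus strand), the factor whose mRNA ERN1 splices, fell in JHH-7. Its JHH-7 sgNTC libraries read 761, 785 and 708 FPKM, against 306, 340.1 and 314 with sgKLB and 317, 311 and 318 with sgFGFR1/3/4. That is 2.35-fold lower with sgKLB (log2 change -1.23 ± 0.0529, adjusted p 7.04e-10) and 2.38-fold lower with sgFGFR1/3/4 (-1.25 ± 0.0529, adjusted p 2.2e-09). A smaller fall was measured with sgFGFR4, at 598, 618 and 611 FPKM (-0.30 ± 0.0529, adjusted p 0.00621), and with sgFGFR3/4, at 627, 619 and 603 (-0.28 ± 0.0529, adjusted p 0.00848). Every JHH-7 knockout library was below every JHH-7 sgNTC library, and the double and single receptor knockouts did not overlap the sgKLB or triple knockout libraries. In HuH-7 sgKLB overlapped the control and the receptor knockouts lay slightly below it, with 384 ± 9.96 FPKM in sgNTC, 374 ± 6.12 in sgKLB, 354 ± 5.20 in sgFGFR4 and 346 ± 17.2 in sgFGFR3/4. None of these passed the test (log2 changes -0.04, -0.12 and -0.15; adjusted p 0.647, 0.145 and 0.0535). The calls for sgFGFR4 and sgFGFR3/4 in JHH-7 were not made when only the groups compared were fitted (adjusted p 0.069 and 0.126).

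ATF6 (GRCh38 chr1:161766294-161964070, plus strand) also fell in JHH-7. Its JHH-7 levels were 15.8, 15.2 and 14.7 FPKM in sgNTC, 7.99, 7.94 and 8.35 in sgKLB, 9.94, 10.8 and 12.6 in sgFGFR4, 10.9, 12.01 and 11.8 in sgFGFR3/4 and 8.11, 8.58 and 8.58 in sgFGFR1/3/4. No knockout library reached the lowest sgNTC library. The log2 changes were -0.83 ± 0.0945 (adjusted p 1.02e-05) for sgKLB and -0.78 ± 0.0945 (adjusted p 2.03e-05) for sgFGFR1/3/4, and for sgFGFR4 and sgFGFR3/4 -0.43 ± 0.0945 and -0.37 ± 0.0945 (adjusted p 0.0204 and 0.0469). The sgFGFR4 call was lost without sgNTC 1 or 2 or sgFGFR4 1 or 2 (adjusted p up to 0.109), and the sgFGFR3/4 call without any 1 of the 6 libraries (adjusted p up to 0.14), scaled to TPM (adjusted p 0.051) and with the correction for length and GC content (adjusted p 0.0531). In HuH-7 the 4 group means were 4.74 ± 0.511, 5.36 ± 0.380, 5.31 ± 0.295 and 5.36 ± 0.442 FPKM (sgNTC, sgKLB, sgFGFR4 and sgFGFR3/4), overlapping, and none of the changes of 0.15, 0.14 and 0.15 passed. ATF6B, its paralogue, fell in JHH-7 sgFGFR1/3/4, from 53.3, 75.6 and 64.98 FPKM in sgNTC to 39.4, 39.6 and 45.1 (log2 change -0.62 ± 0.123, adjusted p 0.00111). It was called in none of the other comparisons with sgNTC.

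The kinase EIF2AK3 (GRCh38 chr2:88556741-88627576, minus strand) did not pass in any comparison with sgNTC. Its HuH-7 means were 16.3 ± 2.44 FPKM in sgNTC, 17.8 ± 0.190 in sgKLB, 17.5 ± 2.04 in sgFGFR4 and 18.2 ± 1.73 in sgFGFR3/4. In JHH-7 the sgNTC libraries were scattered, at 7.39, 7.11 and 13.1 FPKM, and overlapped every knockout, including 7.05, 7.66 and 7.09 in sgKLB and 13.5, 9.51 and 11.2 in sgFGFR1/3/4. The log2 changes in JHH-7 were -0.25 ± 0.222 for sgKLB, -0.18 ± 0.222 for sgFGFR4, -0.24 ± 0.222 for sgFGFR3/4 and 0.32 ± 0.222 for sgFGFR1/3/4 (adjusted p 0.422, 0.742, 0.663 and 0.28).

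CREB3L3 (GRCh38 chr19:4153601-4173054, plus strand), the liver-enriched ER-bound factor, rose in both lines with sgKLB. HuH-7 sgNTC read 35.7, 31.8 and 33.3 FPKM and sgKLB 71.2, 62.00 and 64.5, a 1.96-fold rise (log2 change 0.95 ± 0.0730, adjusted p 7.08e-06). JHH-7 sgNTC read 28.9, 30.7 and 30.04 and sgKLB 59.3, 61.9 and 59.1, a 2.01-fold rise (0.98 ± 0.0641, adjusted p 4.25e-08). The groups did not overlap in either line. With sgFGFR3/4 it rose to 52.7, 55.7 and 54.6 FPKM in HuH-7 (0.68 ± 0.0730, adjusted p 0.000199) and to 38.8, 38.6 and 39.4 in JHH-7 (0.37 ± 0.0641, adjusted p 0.00533). With sgFGFR4 the levels of 42.8, 39.2 and 38.8 FPKM in HuH-7 and 33.5, 36.7 and 33.5 in JHH-7 were all above the control libraries, but the changes of 0.25 ± 0.0730 and 0.20 ± 0.0641 did not pass (adjusted p 0.0655 and 0.0952). With sgFGFR1/3/4 the level overlapped the control, at 27.6, 29.8 and 27.7 FPKM (-0.07 ± 0.0641, adjusted p 0.384). The related factor CREB3L2 fell with sgFGFR1/3/4, from 19.3 ± 2.71 to 15.1 ± 0.690 FPKM (-0.32 ± 0.101, adjusted p 0.0201), a call lost without sgNTC 2 or sgFGFR1/3/4 2 or 3 (adjusted p up to 0.101).

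**Figure D2:**
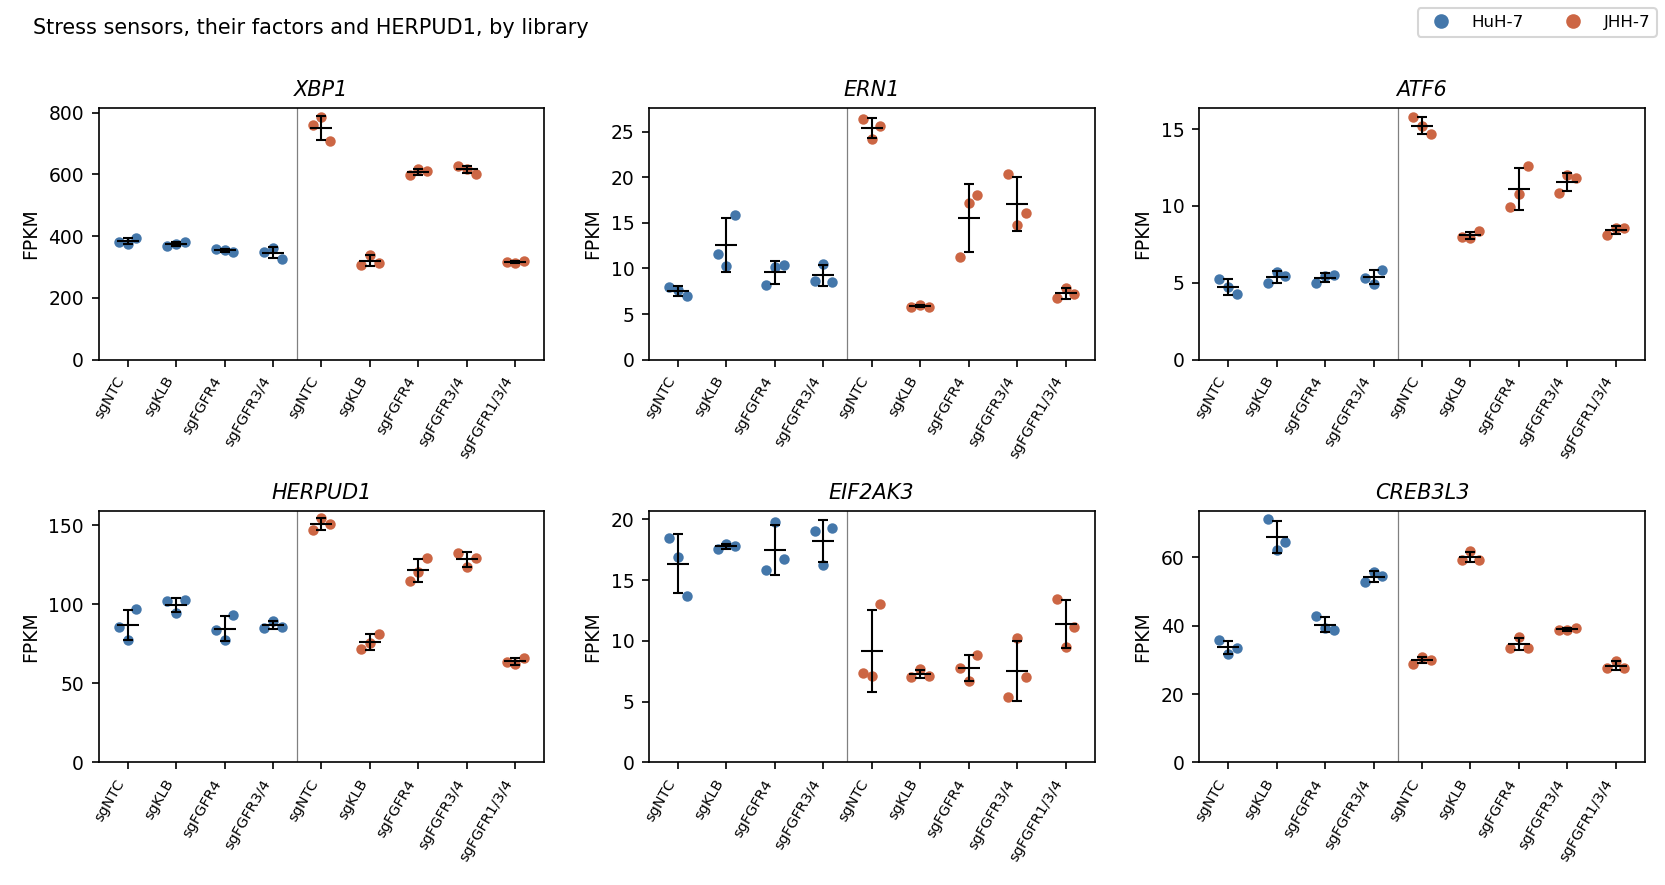
Each point is 1 library, in FPKM on a linear axis from 0, for XBP1, ERN1, ATF6, HERPUD1, EIF2AK3 and CREB3L3 in the 9 groups (blue HuH-7, orange JHH-7); bars are the mean and SD of 3 libraries. XBP1, ERN1, ATF6 and HERPUD1 step down from JHH-7 sgNTC to sgFGFR4 and sgFGFR3/4 and further to sgKLB and sgFGFR1/3/4. For EIF2AK3 each knockout overlaps sgNTC of its line, and CREB3L3 is highest in sgKLB of each line.

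HSPA5 (GRCh38 chr9:125234853-125241330, minus strand), the ER Hsp70 that also holds the sensors inactive, fell in both lines with sgKLB and sgFGFR3/4. In HuH-7 sgNTC read 235, 237 and 229 FPKM, sgKLB 180.3, 197 and 196, sgFGFR4 221, 219 and 211 and sgFGFR3/4 197, 202 and 193. All 3 knockouts lay below all sgNTC libraries, and the falls of -0.29 ± 0.0502 (adjusted p 0.00193) (sgKLB) and -0.24 ± 0.0502 (adjusted p 0.0084) (sgFGFR3/4) passed, whereas -0.11 ± 0.0502 (adjusted p 0.195) (sgFGFR4) did not. Scaled to TPM or by quantiles the sgFGFR3/4 fall was -0.14 or -0.13 and no longer passed (adjusted p up to 0.161). In JHH-7 sgNTC read 307, 326 and 308 FPKM, sgKLB 261, 246 and 265, sgFGFR4 284, 282 and 271, sgFGFR3/4 239.7, 251 and 249 and sgFGFR1/3/4 326, 328 and 329. The JHH-7 falls were with sgKLB (-0.28 ± 0.0487, adjusted p 0.000409) and sgFGFR3/4 (-0.35 ± 0.0487, adjusted p 0.00129), and sgFGFR4 did not pass (-0.17 ± 0.0487, adjusted p 0.0694). The sgFGFR1/3/4 libraries lay just above the control without passing (0.06 ± 0.0487, adjusted p 0.321).

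HYOU1 (GRCh38 chr11:119044189-119057202, minus strand), a large Hsp70 relative that exchanges the nucleotide of HSPA5, was lower in every knockout than in sgNTC of its line. HuH-7 sgNTC read 116, 108 and 116 FPKM, sgKLB 80.3, 76.9 and 83.5, sgFGFR4 89.8, 83.7 and 81.9 and sgFGFR3/4 76.4, 86.8 and 75.7. The changes were -0.49 ± 0.0683 (adjusted p 0.000459) for sgKLB and -0.50 ± 0.0683 (adjusted p 0.000873) for sgFGFR3/4. For sgFGFR4 the change was -0.41 ± 0.0683 (adjusted p 0.0317), lost without sgNTC 2 or 3 or sgFGFR4 1 or 2 or 3 (adjusted p up to 0.124) and at -0.26 with the correction for length and GC content. JHH-7 sgNTC read 193, 234 and 193 FPKM, sgKLB 122, 127 and 114, sgFGFR4 146, 150.4 and 163, sgFGFR3/4 157, 151 and 156 and sgFGFR1/3/4 128, 119.8 and 128. No knockout library reached the control range, and HYOU1 was 1.71-fold lower with sgKLB (-0.76 ± 0.0764, adjusted p 2.9e-06) and 1.65-fold lower with sgFGFR1/3/4 (-0.71 ± 0.0764, adjusted p 7.15e-06). The falls with sgFGFR4 and sgFGFR3/4 were -0.42 ± 0.0764 and -0.41 ± 0.0764 (adjusted p 0.00677 and 0.00903), and neither was called when only the groups compared were fitted (adjusted p 0.0735 and 0.109).

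SDF2L1, MANF and CRELD2 are small lumenal proteins known for their strong induction by ER stress, and they differed between the lines. SDF2L1 (GRCh38 chr22:21642261-21644298, plus strand), a partner of DNAJB11, read 64.6, 62.6 and 65.9 FPKM in HuH-7 sgNTC, 40.96, 36.4 and 36.7 in sgKLB, 49.5, 39.4 and 48.5 in sgFGFR4 and 44.1, 44.9 and 37.6 in sgFGFR3/4. All HuH-7 knockout libraries were below the control, 1.69-fold in the mean with sgKLB (log2 change -0.75 ± 0.0968, adjusted p 0.000272) and 1.52-fold with sgFGFR3/4 (-0.60 ± 0.0968, adjusted p 0.0024). The sgFGFR4 fall (-0.49 ± 0.0968, adjusted p 0.0382) was lost without sgNTC 2 or 3 or sgFGFR4 1 or 2 or 3 (adjusted p up to 0.147) and was -0.32 and not called with the correction for length and GC content (adjusted p 0.0546). In JHH-7 it read 51.4, 60.9 and 53.4 FPKM in sgNTC, 99.8, 72.7 and 88.6 in sgKLB and 88.8, 97.5 and 91.2 in sgFGFR1/3/4, so both knockouts were above the control. The ratios of means were 1.58 (0.64 ± 0.136, adjusted p 0.00229) and 1.68 (0.74 ± 0.136, adjusted p 0.000677). The libraries of sgFGFR4 at 77.1, 56.7 and 54.8 and sgFGFR3/4 at 63.04, 49.97 and 53.3 FPKM overlapped the control and did not pass (0.17 and 0.00).

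CRELD2 (GRCh38 chr22:49918167-49927540, plus strand) followed the same division. Its HuH-7 libraries read 81.1, 84.03 and 95.97 FPKM in sgNTC, 66.8, 59.1 and 61.04 in sgKLB, 72.4, 60.8 and 70.7 in sgFGFR4 and 66.6, 70.98 and 61.8 in sgFGFR3/4. It fell with sgKLB (-0.47 ± 0.0898, adjusted p 0.0033) and sgFGFR3/4 (-0.38 ± 0.0898, adjusted p 0.0153). The latter call was lost without sgNTC 3 or sgFGFR3/4 3 (adjusted p up to 0.0659), and sgFGFR4 did not pass (-0.35 ± 0.0898, adjusted p 0.0521). Its JHH-7 libraries read 30.4, 29.4 and 27.9 FPKM in sgNTC, 46.00, 44.7 and 45.6 in sgKLB and 49.2, 44.7 and 48.3 in sgFGFR1/3/4. Here the ratios of means were 1.56 for sgKLB (0.62 ± 0.0863, adjusted p 6.68e-05) and 1.62 for sgFGFR1/3/4 (0.68 ± 0.0863, adjusted p 3.03e-05). The sgFGFR4 group, above the control at 33.1 ± 1.87, and sgFGFR3/4, overlapping it at 30.6 ± 3.79 FPKM, did not pass. MANF, a secreted survival factor that binds HSPA5, read 52.8, 57.9 and 55.8 FPKM in HuH-7 sgNTC and 37.4, 33.5 and 42.5 in sgKLB (-0.55 ± 0.101, adjusted p 0.00288). It also fell to 36.9, 45.3 and 37.3 in sgFGFR3/4 (-0.47 ± 0.101, adjusted p 0.00966). In sgFGFR4 it fell to 43.8, 38.5 and 42.1 (-0.41 ± 0.101, adjusted p 0.0492), a call lost without sgNTC 2 or 3 or sgFGFR4 1 or 2 or 3 (adjusted p up to 0.177). In JHH-7 MANF rose from 39.97, 49.4 and 40.5 to 58.1, 59.98 and 53.7 FPKM with sgFGFR1/3/4 (0.40 ± 0.117, adjusted p 0.0137), a call lost without sgNTC 1 or sgFGFR1/3/4 2 (adjusted p up to 0.0532). It also lay above the control at 51.1, 50.5 and 55.1 with sgKLB (0.27 ± 0.117, adjusted p 0.0922).

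Of the remaining lumenal chaperones, HSP90B1, DNAJB11 and DNAJC3 rose with sgFGFR1/3/4 in JHH-7, and DNAJC10 and DNAJB9 did not pass there. HSP90B1 (GRP94), the ER Hsp90, read 422, 316 and 421 FPKM in JHH-7 sgNTC and 574, 588 and 594 with sgFGFR1/3/4, a 1.52-fold rise (0.61 ± 0.128, adjusted p 0.00169). DNAJB11, an HSPA5 co-chaperone, rose from 80.1, 72.99 and 76.3 to 112, 117 and 119 FPKM (0.60 ± 0.0655, adjusted p 8.53e-06), and DNAJC3, another, from 13.9, 9.44 and 11.8 to 21.02, 19.9 and 21.2 (0.79 ± 0.175, adjusted p 0.00253). None of these groups overlapped its control. With the correction for length and GC content the rises were smaller, at 0.37, 0.37 and 0.52 for HSP90B1, DNAJB11 and DNAJC3, and still passed. In JHH-7 sgKLB none of the 3 passed (changes -0.18, 0.00 and 0.10), but DNAJC10, a co-chaperone that reduces disulfides, fell from 25.96, 15.9 and 25.8 to 11.3, 9.48 and 14.01 FPKM (-0.89 ± 0.237, adjusted p 0.00999). In HuH-7 sgKLB DNAJB11 fell from 64.8 ± 2.68 to 49.4 ± 1.54 FPKM (-0.38 ± 0.0564, adjusted p 0.000659). HSP90B1 fell there from scattered control values of 156, 129 and 103 FPKM to 90.95, 98.9 and 89.4 (-0.45 ± 0.137, adjusted p 0.0395), a call lost without sgNTC 1 or 2 or sgKLB 1 or 2 or 3 (adjusted p up to 0.132). With sgFGFR3/4 in HuH-7 DNAJB11 fell by less (-0.22 ± 0.0564, adjusted p 0.0249). That call was lost without sgNTC 1 or 2 or sgFGFR3/4 1 or 3 (adjusted p up to 0.0907), and the value was -0.11 scaled to TPM and -0.34 with the correction for length and GC content. DNAJB9, a co-chaperone that helps to silence ERN1, passed in no comparison with sgNTC, with HuH-7 group means of 28.1 to 38.2 FPKM and JHH-7 means of 20.1 to 28.5.

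The lectin chaperones CALR and CANX hold glycoproteins while they fold. CALR (GRCh38 chr19:12938578-12944489, plus strand) read 854, 855 and 948 FPKM in HuH-7 sgNTC, 743, 718 and 761 in sgKLB, 732, 697 and 744 in sgFGFR4 and 679, 751 and 661 in sgFGFR3/4, so every HuH-7 knockout library was below the control. The falls were -0.26 ± 0.0610 (adjusted p 0.0125) with sgKLB, -0.29 ± 0.0610 (adjusted p 0.0393) with sgFGFR4 and -0.34 ± 0.0610 (adjusted p 0.00416) with sgFGFR3/4. The sgKLB call was lost without sgKLB 2 (adjusted p up to 0.0506) and the sgFGFR4 call without sgNTC 2 or 3 or sgFGFR4 1 or 2 or 3 (adjusted p up to 0.155). The sgFGFR4 change was -0.15 with quantile scaling or the correction for length and GC content, and the sgFGFR3/4 change -0.21 with quantile scaling. In JHH-7 every knockout library was above the control of 549, 531 and 551 FPKM, with 792, 799 and 815 in sgKLB, 827, 744 and 627 in sgFGFR4, 752, 608 and 653 in sgFGFR3/4 and 811, 835 and 817 in sgFGFR1/3/4. It rose 1.47-fold with sgKLB (0.56 ± 0.0877, adjusted p 0.000198) and 1.51-fold with sgFGFR1/3/4 (0.59 ± 0.0877, adjusted p 0.000111). The sgFGFR4 rise (0.42 ± 0.0877, adjusted p 0.0152) was lost without sgNTC 2 or sgFGFR4 1 or 2 (adjusted p up to 0.0804), and sgFGFR3/4 did not pass (0.30 ± 0.0877, adjusted p 0.0834). The membrane-bound CANX rose with sgFGFR1/3/4, from 281, 272 and 296 to 343, 335 and 341 FPKM (0.26 ± 0.0668, adjusted p 0.0061; 0.17 with the correction for length and GC content), and passed in no other comparison with sgNTC.

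In the disulfide isomerase family ERP27 (GRCh38 chr12:14914035-14939082, minus strand), a member without catalytic cysteines that binds PDIA3, had the largest rise of any member in each comparison with sgNTC. HuH-7 sgNTC read 3.82, 4.69 and 4.08 FPKM, sgKLB 16.96, 14.5 and 15.9, sgFGFR4 7.72, 7.82 and 8.29 and sgFGFR3/4 13.5, 11.3 and 15.7. The means were 3.76-fold, 1.89-fold and 3.22-fold the control, with log2 changes of 1.69 ± 0.123 (adjusted p 4.8e-06), 0.79 ± 0.123 (adjusted p 0.0317) and 1.47 ± 0.123 (adjusted p 4.34e-05), and no knockout library overlapped sgNTC. The sgFGFR4 call was lost without sgNTC 2 or 3 or sgFGFR4 1 or 2 or 3 (adjusted p up to 0.124). JHH-7 started far lower, at 0.610, 0.440 and 0.510 FPKM in sgNTC, and read 3.60, 3.71 and 4.66 in sgKLB, 1.40, 1.32 and 2.18 in sgFGFR4, 1.67, 1.48 and 1.99 in sgFGFR3/4 and 2.03, 1.98 and 3.59 in sgFGFR1/3/4. Again no library overlapped the control, and the ratios of means were 7.67, 3.14, 3.29 and 4.87. Because the filter kept ERP27 in JHH-7 through the knockout libraries, its tests there were also read with no filter: sgKLB and sgFGFR1/3/4 were still called (adjusted p 3.86e-05 and 0.000674), and sgFGFR4 and sgFGFR3/4 were not (adjusted p 0.0765 and 0.0633). With the filter the log2 changes were 1.71 ± 0.191 (adjusted p 8.72e-06) for sgKLB and 1.19 ± 0.191 (adjusted p 0.000222) for sgFGFR1/3/4; for sgFGFR4 and sgFGFR3/4 they were 0.78 ± 0.191 and 0.83 ± 0.191 (adjusted p 0.0336 and 0.0288). With a pseudocount of 0.1 in place of 1 the JHH-7 changes were 2.72, 1.46, 1.55 and 2.04 in the order sgKLB, sgFGFR4, sgFGFR3/4, sgFGFR1/3/4. The sgFGFR4 call was lost without any 1 of the 6 libraries (adjusted p up to 0.107) and the sgFGFR3/4 call without sgNTC 1 or 2 or 3 or sgFGFR3/4 1 or 3 (adjusted p up to 0.105).

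PDIA4 (GRCh38 chr7:149003062-149028641, minus strand), a catalytic isomerase, showed the division between the lines. It read 132, 139 and 143 FPKM in HuH-7 sgNTC, 94.1, 94.2 and 98.6 in sgKLB, 109, 97.4 and 106 in sgFGFR4 and 97.7, 108 and 99.1 in sgFGFR3/4, all knockouts below the control. The changes were -0.52 ± 0.0631 (adjusted p 0.00017), -0.40 ± 0.0631 (adjusted p 0.0317) and -0.43 ± 0.0631 (adjusted p 0.00128), the second lost without sgNTC 2 or 3 or sgFGFR4 1 or 2 or 3 (adjusted p up to 0.124). In JHH-7 it read 139, 138 and 133 FPKM in sgNTC, 177, 172 and 172 in sgKLB and 158, 159 and 159.7 in sgFGFR1/3/4, both above the control. The rises were 0.34 ± 0.0557 (adjusted p 0.000257) for sgKLB and 0.22 ± 0.0557 (adjusted p 0.00661) for sgFGFR1/3/4, the latter 0.33 with the correction for length and GC content. PDIA3 and PDIA6, further catalytic isomerases, fell in HuH-7 with sgKLB (-0.28 ± 0.0564, adjusted p 0.00532 and -0.37 ± 0.0547, adjusted p 0.000744) and with sgFGFR3/4 (-0.31 ± 0.0564, adjusted p 0.00506 and -0.29 ± 0.0547, adjusted p 0.00562). Scaled to TPM the sgFGFR3/4 falls were -0.20 and -0.18, and with quantile scaling PDIA3 fell by 0.18 with sgKLB and by 0.19 with sgFGFR3/4. Both rose in JHH-7 sgFGFR1/3/4 (0.26 ± 0.0494, adjusted p 0.000756 and 0.31 ± 0.0632, adjusted p 0.00138), but with the correction for length and GC content PDIA3 was at 0.12 and no longer passed (adjusted p 0.0843) and PDIA6 was at 0.19.

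Of the other members of the family, TXNDC11 and TXNDC5 were called in both lines with sgKLB. TXNDC11, a thioredoxin-domain protein of the ER membrane, rose with sgKLB from 40.1, 37.5 and 38.9 to 46.6, 47.7 and 50.2 FPKM in HuH-7 (0.30 ± 0.0646, adjusted p 0.00696). It also rose from 27.4, 28.7 and 24.8 to 35.01, 37.2 and 35.7 in JHH-7 (0.41 ± 0.0786, adjusted p 0.00113). TXNDC5 fell with sgKLB in JHH-7 from 153 ± 5.95 to 127 ± 3.38 FPKM (-0.27 ± 0.0642, adjusted p 0.00472). Its fall in HuH-7 sgKLB (-0.17 ± 0.0497, adjusted p 0.0372) was lost without any 1 of the 6 libraries (adjusted p up to 0.107). Its fall in HuH-7 sgFGFR3/4 (-0.16 ± 0.0497, adjusted p 0.0444) was lost without sgNTC 1 or 2 or 3 or sgFGFR3/4 1 or 3 (adjusted p up to 0.138). Scaled to TPM these values were -0.10 and -0.06, with quantile scaling -0.11 and -0.08, and none passed; the latter was -0.09 and not called with the correction for length and GC content (adjusted p 0.144). PDIA5 rose in JHH-7 sgKLB from 16.1 ± 1.71 to 21.9 ± 1.02 FPKM (0.43 ± 0.0907, adjusted p 0.00228). ERP29, a non-catalytic member, fell in JHH-7 with sgFGFR1/3/4 (-0.38 ± 0.103, adjusted p 0.00914) and sgKLB (-0.30 ± 0.103, adjusted p 0.0355), the latter lost without sgNTC 2 or 3 or sgKLB 1 or 3 (adjusted p up to 0.158). ERP44, which retrieves clients from the early secretory pathway, rose with sgFGFR1/3/4 from 13.7 ± 1.11 to 17.99 ± 1.01 FPKM (0.37 ± 0.0882, adjusted p 0.00407). The rise was 0.08 and did not pass with the correction for length and GC content (adjusted p 0.55). P4HB, the founding protein disulfide isomerase and 1 of the 3 most abundant members in both lines, passed in no comparison with sgNTC. Its group means ran from 464 ± 17.6 to 552 ± 36.8 FPKM in HuH-7 and 452 ± 1.81 to 519 ± 12.4 in JHH-7.

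**Figure D3:**
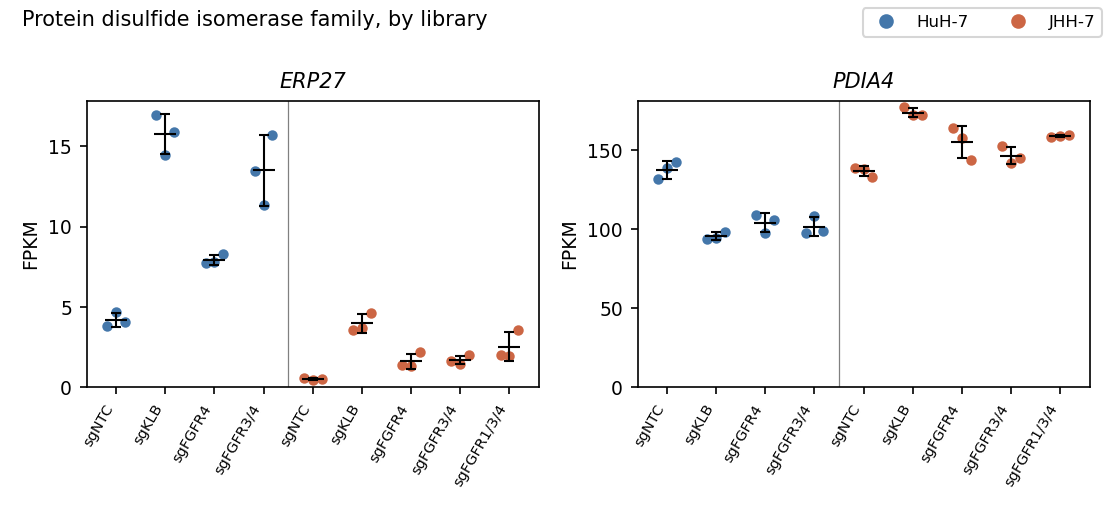
Each point is 1 library, in FPKM on a linear axis from 0, for ERP27 and PDIA4 in the 9 groups (blue HuH-7, orange JHH-7); bars are the mean and SD of 3 libraries. ERP27 is above the control in all knockout libraries of both lines and highest in sgKLB of each line; PDIA4 is below sgNTC in the HuH-7 knockouts and above it in the JHH-7 ones.

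ER-associated degradation was led by HERPUD1 (GRCh38 chr16:56932048-56944863, plus strand), a membrane scaffold of the degradation complex. In JHH-7 sgNTC it read 147, 154 and 151 FPKM, and 71.7, 75.6 and 81.3 with sgKLB, 115, 121 and 129 with sgFGFR4, 133, 124 and 129.6 with sgFGFR3/4 and 63.3, 62.4 and 66.2 with sgFGFR1/3/4. All knockout libraries were below the control, 1.98-fold with sgKLB (-0.98 ± 0.0635, adjusted p 4.18e-08) and 2.36-fold with sgFGFR1/3/4 (-1.22 ± 0.0635, adjusted p 1.23e-08). The sgFGFR4 fall (-0.31 ± 0.0635, adjusted p 0.0141) was lost without sgNTC 2 or sgFGFR4 1 or 2 (adjusted p up to 0.0799), and sgFGFR3/4 did not pass (-0.23 ± 0.0635, adjusted p 0.0644). In HuH-7 it did not pass in any knockout, with 86.9 ± 9.66 FPKM in sgNTC and 99.7 ± 4.68 in sgKLB. The ubiquitin ligase SYVN1 (HRD1) fell in JHH-7 sgFGFR1/3/4 from 43.6, 47.6 and 37.9 to 24.1, 25.5 and 28.9 FPKM (-0.69 ± 0.118, adjusted p 0.000358). Its partner SEL1L fell in JHH-7 sgKLB from 35.9, 31.1 and 30.9 to 26.8, 16.9 and 19.4 FPKM (-0.63 ± 0.199, adjusted p 0.025), a call lost without sgNTC 1 or sgKLB 2 or 3 (adjusted p up to 0.108). EDEM1, EDEM2 and EDEM3, which mark glycoproteins for degradation, passed in no comparison with sgNTC, and limma called none of the 6 genes of this role in a HuH-7 knockout. There the unadjusted p was under 0.05 for HERPUD1 with sgKLB and for SEL1L, EDEM2 and EDEM3 with sgFGFR4 and with sgFGFR3/4.

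Of the translocon, export and membrane genes, SEC61B, a subunit of the protein-conducting channel, rose in JHH-7 sgFGFR1/3/4 from 196, 199 and 223 to 292, 291 and 307 FPKM (0.53 ± 0.0703, adjusted p 4.6e-05). It fell in HuH-7 sgKLB from 571, 547 and 555 to 484, 459.8 and 469.8 (-0.24 ± 0.0474, adjusted p 0.00408) and in sgFGFR3/4 to 517, 499 and 491 (-0.15 ± 0.0474, adjusted p 0.0498). The latter call was lost without any 1 of the 6 libraries (adjusted p up to 0.145) and the value was -0.04 scaled to TPM, -0.06 with quantile scaling and -0.12, not called, with the correction for length and GC content. SEC24D, a coat protein of vesicles that leave the ER, fell in sgFGFR1/3/4 from 15.9, 17.5 and 14.2 to 11.7, 10.7 and 11.1 FPKM (-0.47 ± 0.107, adjusted p 0.00298). WFS1, a membrane protein of the ER, fell in HuH-7 sgFGFR3/4 from 55.6, 45.6 and 58.5 to 41.1, 40.5 and 31.3 FPKM (-0.49 ± 0.143, adjusted p 0.0388), a call lost without sgNTC 1 or 3 or sgFGFR3/4 1 or 3 (adjusted p up to 0.148). SEC61A1, the channel itself, passed in no comparison with sgNTC.

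Whether a knockout moved a member differently in the lines was tested as the change from sgNTC in JHH-7 minus that in HuH-7. For sgKLB 9 members were higher and 6 lower in this difference (9.8% and 9.9% of all 16731 tested genes, 19.7% together). The largest were ERN1 (-2.59 ± 0.221, adjusted p 1.6e-08), SDF2L1 (1.38 ± 0.177, adjusted p 4.82e-06) and XBP1 (-1.19 ± 0.0649, adjusted p 1.88e-11). Next were HERPUD1 (-1.18 ± 0.104, adjusted p 2.86e-08), CRELD2 (1.09 ± 0.123, adjusted p 8.15e-07) and ATF6 (-0.98 ± 0.129, adjusted p 6.78e-06). Apart from DNAJB9, the chaperones and isomerases that passed were on the higher side, while the sensors, factors, HERPUD1 and SEL1L (-0.93 ± 0.264, adjusted p 0.0146) were on the lower side. PDIA4 (0.86 ± 0.0770, adjusted p 3.06e-08), MANF (0.82 ± 0.160, adjusted p 0.000641) and CALR (0.82 ± 0.111, adjusted p 1.03e-05) were further members on the higher side. DNAJB9 was lower (-0.64 ± 0.209, adjusted p 0.035), a call lost without HuH-7 sgNTC 2 or 3, HuH-7 sgKLB 1, JHH-7 sgNTC 2 or 3 or JHH-7 sgKLB 2 or 3 (adjusted p up to 0.111). HSPA5, EIF2AK3, ERP27 and CREB3L3 did not pass, with differences of 0.01 ± 0.0606, -0.38 ± 0.269, 0.02 ± 0.221 and 0.03 ± 0.0871. Read by calls in each line, 3 of the 4 members that rose in HuH-7 sgKLB were among the 8 that rose in JHH-7 (ERP27, TXNDC11 and CREB3L3). Of the falls, 3 of the 13 that fell in HuH-7 were among the 10 that fell in JHH-7 (HSPA5, HYOU1 and TXNDC5). A further 4 fell in HuH-7 and rose in JHH-7 (SDF2L1, CRELD2, CALR and PDIA4), and 1 rose in HuH-7 and fell in JHH-7 (ERN1). As shares of the HuH-7 and of the JHH-7 calls these are 75% and 37.5% (up in both), 23.1% and 30% (down in both), 30.8% and 50% (down in HuH-7, up in JHH-7) and 25% and 10% (the reverse). Over all 13304 genes tested in both lines the same shares were 45.8% and 26.8%, 33.4% and 17.7%, 15% and 8.75%, and 10.3% and 5.49%. The counts of members are small, and whether their shares differ from those of all genes was not tested.

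**Figure D4:**
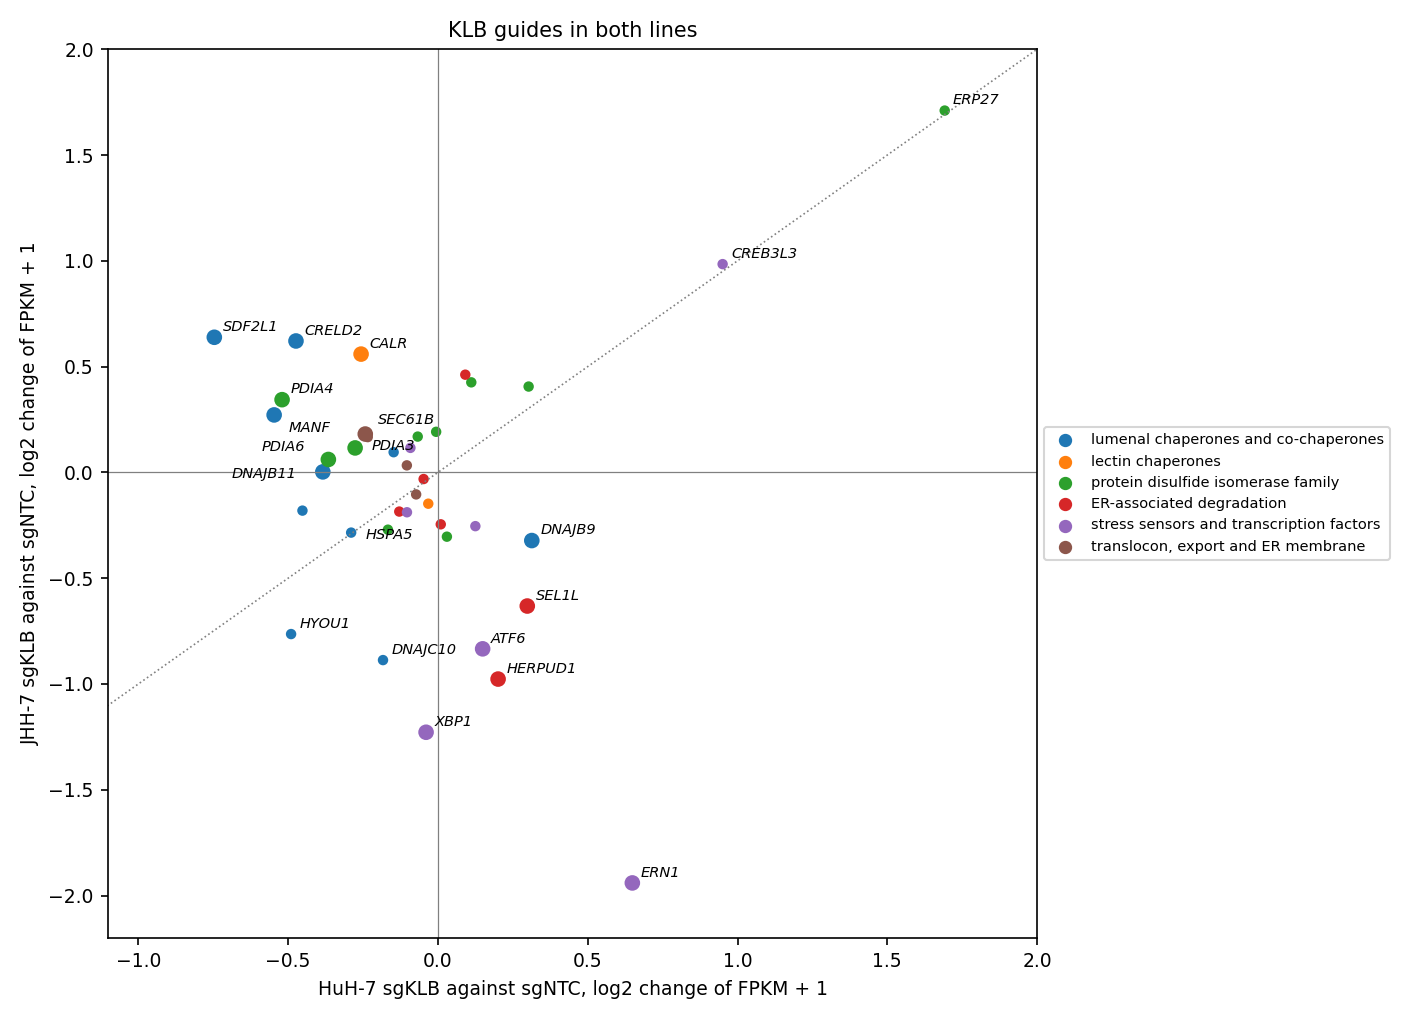
Each point is 1 of the 39 members, by its change with sgKLB in HuH-7 (x axis) and in JHH-7 (y axis), both as differences of mean log2(FPKM + 1) from sgNTC. Colours are roles, large points are members whose change differed between the lines at adjusted p under 0.05, and the dotted line marks equal change. ERP27 and CREB3L3 lie near the line of equal change, SDF2L1, CRELD2, CALR and PDIA4 lie in the upper left, and ERN1, HERPUD1 and ATF6 in the lower right.

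For sgFGFR4, 6 members were higher and 2 lower in the difference between lines (2.37% and 1.75% of all genes, 4.12% together). These held CALR (0.71 ± 0.111, adjusted p 0.00102), PDIA4 (0.58 ± 0.0770, adjusted p 0.000291) and PDIA3 (0.35 ± 0.0668, adjusted p 0.00514) higher and ERN1 (-1.01 ± 0.221, adjusted p 0.013) lower. SDF2L1 was higher (0.66 ± 0.177, adjusted p 0.0385), but was lost without HuH-7 sgNTC 1 or 2 or 3, HuH-7 sgFGFR4 2, JHH-7 sgNTC 1 or 3 or JHH-7 sgFGFR4 1 (adjusted p up to 0.122). CRELD2 (0.53 ± 0.123, adjusted p 0.0182) was lost without HuH-7 sgNTC 3, HuH-7 sgFGFR4 2 or JHH-7 sgFGFR4 2 (adjusted p up to 0.0599). PDIA6 (0.34 ± 0.0786, adjusted p 0.0182) and ATF6 (-0.57 ± 0.129, adjusted p 0.0159) were lost without JHH-7 sgFGFR4 1 (adjusted p 0.0671 and 0.0613). With TPM scaling SDF2L1 and PDIA6 were lost too, with quantile scaling PDIA6 and ATF6 were, and PDIA3 was at 0.22 with quantile scaling. For sgFGFR3/4, 6 were higher and 4 lower (3.77% and 3.44%, 7.21% together), again with CALR (0.64 ± 0.111, adjusted p 0.00119), PDIA4 (0.53 ± 0.0770, adjusted p 0.000291) and PDIA3 (0.40 ± 0.0668, adjusted p 0.000986) on the higher side. PDIA6 was higher too (0.32 ± 0.0786, adjusted p 0.0157; 0.20 and not called when scaled to TPM). DNAJB9 (-0.84 ± 0.209, adjusted p 0.0176) was lost without HuH-7 sgFGFR3/4 3 or JHH-7 sgFGFR3/4 1 (adjusted p up to 0.0603). ATF6 (-0.52 ± 0.129, adjusted p 0.018) was lost without HuH-7 sgNTC 3, HuH-7 sgFGFR3/4 3 or JHH-7 sgFGFR3/4 1 (adjusted p up to 0.0576). It was also lost with quantile scaling, at -0.32, and with the correction for length and GC content, at -0.31 (adjusted p 0.0933 and 0.0883). ERN1, also lower (-0.82 ± 0.221, adjusted p 0.0271), was lost without HuH-7 sgNTC 3, HuH-7 sgFGFR3/4 2, JHH-7 sgNTC 1 or 3 or JHH-7 sgFGFR3/4 2 or 3 (adjusted p up to 0.0723). SDF2L1 (0.60 ± 0.177, adjusted p 0.0405) was lost without HuH-7 sgNTC 1 or 2 or 3, HuH-7 sgFGFR3/4 1 or 3, JHH-7 sgNTC 1 or 3 or JHH-7 sgFGFR3/4 1 or 3 (adjusted p up to 0.129). CRELD2 (0.44 ± 0.123, adjusted p 0.0317) was lost without HuH-7 sgNTC 3, HuH-7 sgFGFR3/4 1 or 3, JHH-7 sgNTC 3 or JHH-7 sgFGFR3/4 1 or 3 (adjusted p up to 0.104). CREB3L3 was lower (-0.31 ± 0.0871, adjusted p 0.0349) and was lost without HuH-7 sgNTC 2 or 3, HuH-7 sgFGFR3/4 2 or 3, JHH-7 sgNTC 2 or 3 or JHH-7 sgFGFR3/4 1 or 3 (adjusted p up to 0.0839). For sgFGFR3/4, SDF2L1 and CRELD2 were lost with TPM scaling too, and quantile scaling ended the calls of SDF2L1, CRELD2, PDIA6, ERN1 and CREB3L3 and left PDIA3 at 0.27. Scaled to TPM, the splits were 4 higher and 4 lower for sgFGFR4 (1.6% and 2.75% of all genes) and 3 higher and 7 lower for sgFGFR3/4 (2.35% and 6.26%), as the median difference of all genes moved from -0.05 to -0.13 and from -0.07 to -0.17. The sgFGFR4 count of 8 was 5 without JHH-7 sgFGFR4 1 (1.48% of all genes), and the sgFGFR3/4 count of 10 was 5 without HuH-7 sgNTC 3, HuH-7 sgFGFR3/4 3 or JHH-7 sgFGFR3/4 1 and 6 without JHH-7 sgNTC 3 or JHH-7 sgFGFR3/4 3 (3.61%, 3.67%, 3.85%, 4.4% and 5.93% of all genes in that order).

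Knockouts of a line were also compared with each other. In JHH-7 sgFGFR1/3/4, 15 members were higher and 9 lower than in sgFGFR3/4 (16.8% and 15.4% of all genes, 32.2% together). FGFR3 was also lower in sgFGFR1/3/4 (34.65 ± 0.361 against 43.9 ± 0.506 FPKM), as was FGFR4 (66.9 ± 0.834 against 84.2 ± 12.9). The part of the FGFR1 guides therefore cannot be told apart from these differences. The rises included 8 of the 10 lumenal chaperones, among them SDF2L1 (0.73 ± 0.136, adjusted p 0.00109), HSP90B1 (0.73 ± 0.128, adjusted p 0.00075), DNAJC3 (0.77 ± 0.175, adjusted p 0.00424) and HSPA5 (0.41 ± 0.0487, adjusted p 4.21e-05). The falls were led by ERN1 (-1.12 ± 0.152, adjusted p 0.000117), HERPUD1 (-0.996 ± 0.0635, adjusted p 2.08e-07), XBP1 (-0.96 ± 0.0529, adjusted p 7.73e-08) and SYVN1 (-0.59 ± 0.118, adjusted p 0.00189). CREB3L3 (-0.45 ± 0.0641, adjusted p 0.000179) and ATF6 (-0.41 ± 0.0945, adjusted p 0.00435) also fell. With the correction for length and GC content the values were 0.48 for DNAJC3, 0.401 for DNAJB11, 0.465 for CALR, -0.21 for CREB3L3, -0.67 for ATF6 and -0.336 for ATF6B, all still called. DNAJB9, 1 of the 8 chaperones, was at 0.2 and not called with that correction (adjusted p 0.276). PDIA3 at 0.033, PDIA6 at 0.164 and ERP44 at -0.036 were not called with it either (adjusted p 0.695, 0.0623 and 0.813). SEL1L rose as well (0.66 ± 0.199, adjusted p 0.0199), a call lost without sgFGFR3/4 1 or sgFGFR1/3/4 1 (adjusted p up to 0.0971); its value was 0.42 without JHH-7 sgFGFR3/4 1 and 0.42 and not called with that correction (adjusted p 0.0855). HYOU1 fell (-0.31 ± 0.0764, adjusted p 0.00738), but was at -0.13 and not called with that correction (adjusted p 0.117).

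The 2 JHH-7 knockouts with the most changed genes, sgKLB and sgFGFR1/3/4, differed in 23 members, 10 higher and 13 lower in sgKLB (15.9% and 19.7% of all genes, 35.7% together). XBP1, ERN1 and ATF6 did not pass, with differences of 0.02 ± 0.0529, -0.26 ± 0.152 and -0.05 ± 0.0945. SDF2L1, CRELD2 and CALR did not pass either (-0.10 ± 0.136, -0.06 ± 0.0863 and -0.03 ± 0.0877). CREB3L3 was higher in sgKLB (1.06 ± 0.0641, adjusted p 1.48e-07). DNAJC10 (-1.12 ± 0.237, adjusted p 0.00229) and SEL1L (-0.90 ± 0.199, adjusted p 0.00315) were lower. So were HSP90B1 (-0.79 ± 0.128, adjusted p 0.000366), DNAJC3 (-0.69 ± 0.175, adjusted p 0.00711) and HSPA5 (-0.35 ± 0.0487, adjusted p 0.000123). With the correction for length and GC content DNAJC10 was at -0.69, HSP90B1 at -0.52 and DNAJC3 at -0.40, each still called. PDIA5 was higher (0.51 ± 0.0907, adjusted p 0.000691), as were EDEM1 (0.57 ± 0.183, adjusted p 0.0249) and ERP27 (0.52 ± 0.191, adjusted p 0.0462). With that correction EDEM1 was at 0.47 and not called (adjusted p 0.0856), and ERP27 was not called scaled to TPM or with a pseudocount of 0.1 (adjusted p 0.0669 and 0.0719). The EDEM1 call was lost without sgKLB 2 or 3 or sgFGFR1/3/4 1 or 2 (adjusted p up to 0.104) and the ERP27 call without sgKLB 1 or 2 or 3 or sgFGFR1/3/4 1 or 2 (adjusted p up to 0.166).

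In HuH-7 sgFGFR3/4, 2 members were higher than in sgFGFR4 and none was lower (1.02% and 0.598% of all genes, 1.62% together). ERP27 was 1 of them (0.69 ± 0.123, adjusted p 0.0173) and was lost without sgFGFR4 1 or 2 or 3 or sgFGFR3/4 1 or 3 (adjusted p up to 0.0703). CREB3L3 was the other (0.42 ± 0.0730, adjusted p 0.0135) and was lost without sgFGFR4 2 or 3 or sgFGFR3/4 2 (adjusted p up to 0.0729). The count was 0 without sgFGFR4 2 or 3 and 1 without any other of the 6 libraries, with 0.678% to 0.975% of all genes called. Between HuH-7 sgKLB and sgFGFR3/4 limma called 0 of 39 members (0.217% and 0.333% of all genes were higher and lower, 0.55% together); 9 members had an unadjusted p under 0.05 and the smallest adjusted p was 0.101. The changes of the 39 members ran from -0.54 to 0.39, and a p above the threshold does not show that the groups are alike.

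The control cells of the lines differed in most members: between sgNTC of JHH-7 and of HuH-7, 16 members were higher and 18 lower (35% and 28.9% of all genes, 64% together). JHH-7 was higher in ERN1 (1.63 ± 0.156, adjusted p 4.34e-09) and HSP90B1 (1.58 ± 0.141, adjusted p 1.4e-09). It was also higher in XBP1 (0.96 ± 0.0459, adjusted p 2.04e-14), ATF6 (15.2 ± 0.560 against 4.74 ± 0.511 FPKM, adjusted p 1.65e-12) and HSPA5 (0.42 ± 0.0429, adjusted p 1.12e-08; 0.64 with quantile scaling). It was lower in SEC24D (-2.10 ± 0.0832, adjusted p 7.38e-16), ERP27 (-1.77 ± 0.156, adjusted p 1.12e-09; -2.80 with a pseudocount of 0.1) and CRELD2 (-1.54 ± 0.0868, adjusted p 4.48e-13). Lower, too, were SEC61B (-1.44 ± 0.0582, adjusted p 1.14e-15) and EIF2AK3 (-0.81 ± 0.191, adjusted p 0.000804). CREB3L3 was slightly lower (-0.16 ± 0.0616, adjusted p 0.0249), a call lost without HuH-7 sgNTC 1 or JHH-7 sgNTC 1 (adjusted p up to 0.13) and, at -0.10 and -0.11, when scaled to TPM or corrected for length and GC content. Each line came in a table of its own, so line and table cannot be told apart in this comparison. The JHH-7 sgKLB means were 5.89 ± 0.124 FPKM for ERN1, 8.09 ± 0.224 for ATF6 and 320.1 ± 17.8 for XBP1. These lay nearer to HuH-7 sgNTC (7.53 ± 0.544, 4.74 ± 0.511 and 384 ± 9.96) than to JHH-7 sgNTC. The JHH-7 sgFGFR1/3/4 means did so too, at 7.25, 8.42 and 316 FPKM. These genes were picked from the members, and others differed. EIF2AK3, HSP90B1 and SEC24D read 7.27, 337.5 and 14.7 FPKM in JHH-7 sgKLB. They lay nearer to JHH-7 sgNTC (9.19, 386 and 15.9) than to HuH-7 sgNTC (16.3, 129 and 71.3). Members nearer to each line were not counted, so no shift of the sensors as a set is read from this.

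The 10 members with ERSE or ERSE-II letters in their promoter did not move as 1 group. In HuH-7 sgKLB 7 of them fell (HSPA5, HSP90B1, HYOU1, SDF2L1, CRELD2, CALR and PDIA6) and none rose, where 8.62% of all genes fell and 8.98% rose. The HSP90B1 call was among those lost in alternative fits, as given above. In JHH-7 sgKLB 3 rose (SDF2L1, CRELD2 and CALR) and 4 fell (HSPA5, HYOU1, HERPUD1 and XBP1), against 15.5% and 16.4% of all genes. In JHH-7 sgFGFR1/3/4 6 rose (HSP90B1, SDF2L1, CRELD2, CALR, CANX and PDIA6) and 3 fell (HYOU1, HERPUD1 and XBP1), against 20.8% and 19% of all genes. The HYOU1 and SDF2L1 stretches printed above both hold the reversed ERSE-II, and these genes moved in opposite directions in both JHH-7 knockouts.

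Other genes of the stress pathways were read from lists outside the 39 members, described by counts and medians. The genes of these lists were not read under TPM or quantile scaling, with the correction for length and GC content or without single libraries. Their counts are read against the shares of all tested genes, which were 8.98% up and 8.62% down with HuH-7 sgKLB, 15.5% and 16.4% with JHH-7 sgKLB and 20.8% and 19% with sgFGFR1/3/4. The integrated stress response, the arm downstream of EIF2AK3 and other eIF2 alpha kinases, fell in JHH-7: 12 of 15 genes fell and none rose with sgKLB (median -1.25, against -0.02 over all genes). With sgFGFR1/3/4 12 fell and 1 rose (median -0.92 against 0.03). DDIT3, the stress factor CHOP, went from 139.8 ± 5.91 to 36.1 ± 3.86 FPKM with sgKLB (-1.93 ± 0.0825, adjusted p 7.04e-10), and SESN2, a stress-induced inhibitor of mTORC1, from 129 ± 9.27 to 23.8 ± 4.30 (-2.40 ± 0.104, adjusted p 7.1e-10). In HuH-7 sgKLB 4 of the 15 rose and 1 fell, with NUPR1 higher (0.64 ± 0.0831, adjusted p 0.000274) and TRIB3 lower (-0.40 ± 0.0830, adjusted p 0.00554). The difference between lines for sgKLB was lower in 12 of 15 (median -1.79), including DDIT3 (-2.29 ± 0.114, adjusted p 9.74e-12). Of all genes 9.9% were lower and 9.8% higher in this difference. With sgFGFR4 and sgFGFR3/4 in JHH-7, 5 and 2 of the 15 fell and none rose. Of all genes 1.83% and 1.29% fell there and 2.42% and 2.24% rose.

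Cytosolic and mitochondrial heat shock proteins, which serve folding outside the ER, rose in 9 and fell in 3 of 12 genes with sgKLB in JHH-7 (median 0.68) and rose in 10 and fell in 1 with sgFGFR1/3/4 (median 1.06). HSPA8, the constitutive Hsp70, went from 253.8 ± 2.24 to 758 ± 44.5 FPKM with sgKLB (1.57 ± 0.128, adjusted p 3.84e-07) and to 1107 ± 13.8 with sgFGFR1/3/4 (2.12 ± 0.128, adjusted p 4.67e-08). HSF1, the heat shock factor, fell (-0.53 ± 0.0997, adjusted p 0.000946 and -0.63 ± 0.0997, adjusted p 0.000189). HSPA1B also rose (2.00 ± 0.121, adjusted p 2.04e-08 with sgKLB), with the reservation that reads of the near-identical HSPA1A can be counted to it. In HuH-7 0 of the 12 rose and 6 fell with sgKLB (median -0.25), as with sgFGFR3/4 (median -0.22), including HSPA8 (-0.34 ± 0.0498, adjusted p 0.000715 with sgKLB). With HuH-7 sgFGFR3/4 8.9% of all genes rose and 7.22% fell. In the difference between lines for sgKLB, 9 of the 12 were higher and 1 lower (9.8% and 9.9% of all genes).

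Further ER lists moved less. Of 26 other genes of the translocon, signal peptidase and COPII coat, 13 rose and 1 fell with sgFGFR1/3/4 (median 0.27), led by TRAM1 (1.16 ± 0.0801, adjusted p 1.26e-07). Of the same genes 6 rose and 4 fell with JHH-7 sgKLB and 1 rose and 2 fell with HuH-7 sgKLB. Of 25 other ER folding enzymes, 1 rose and 10 fell with JHH-7 sgKLB (median -0.20), led by RCN1 (-1.06 ± 0.0702, adjusted p 4.7e-08). Of the same genes 7 rose and 5 fell with sgFGFR1/3/4, and 5 fell and none rose with HuH-7 sgKLB, including the proline isomerase PPIB (-0.40 ± 0.0718, adjusted p 0.00234). Of 20 other degradation genes tested in HuH-7 2 rose and 0 fell with sgKLB, and of 21 in JHH-7 5 rose and 3 fell with sgKLB and 7 rose and 4 fell with sgFGFR1/3/4. N-glycosylation genes fell in 1 of 15 with HuH-7 sgKLB and rose in 3 and fell in 1 of 16 with JHH-7 sgKLB. No result about the degradation and N-glycosylation genes is read from counts this small. Among 9 other genes of unfolded protein response transcription and processing, 1 rose and 0 fell with HuH-7 sgKLB, 0 rose and 3 fell with JHH-7 sgKLB, and 1 rose and 4 fell with sgFGFR1/3/4.

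ERK output genes, the transcriptional readout of FGF receptor signalling, fell in 9 of 10 with HuH-7 sgKLB (median -0.84), 7 of 10 with HuH-7 sgFGFR3/4 and 8 of 10 with JHH-7 sgKLB (median -1.35), and rose in none of these. ETV4, a factor induced by ERK, was lower in HuH-7 sgKLB (-1.51 ± 0.101, adjusted p 2.73e-06) and JHH-7 sgKLB (-1.84 ± 0.0769, adjusted p 6.84e-10). With sgFGFR1/3/4 5 fell and 2 rose. Fewer of the 10 fell with HuH-7 sgFGFR4 (1), JHH-7 sgFGFR4 (3) and JHH-7 sgFGFR3/4 (3), and none rose there. Of all genes 1.64%, 1.83% and 1.29% fell in these knockouts, and 7.22% fell with HuH-7 sgFGFR3/4. Hepatocyte markers rose in 7 of 9 with HuH-7 sgKLB, 8 of 9 with JHH-7 sgKLB and 6 of 9 with sgFGFR1/3/4, where 1 fell. Their summed level was 5836 to 6311 FPKM in HuH-7 sgNTC and 8945 to 9901 in sgKLB, and 14290.0 to 16360.0 in JHH-7 sgNTC, 31060.0 to 31800.0 in sgKLB and 22490.0 to 23770.0 in sgFGFR1/3/4. They rose in knockouts where lumenal chaperones fell (HuH-7 sgKLB) and where chaperones rose (JHH-7 sgFGFR1/3/4); their part in the results for the 39 members was not tested.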

How the data were processed

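The deposited values, read here as FPKM, were made by the authors with RSEM against GRCh38 (hg38), per the submitters' processing notes. The sources used here name neither tool versions nor the aligner or annotation. Each line has its own table with 1 value per gene and library. The unit was read from the values: columns summed to 723416 to 822978 and were not whole numbers. Depth was estimated from the steps of low values, 88.63% to 91.95% of which lay within 0.1 of a whole fragment. Depth and fragment length were chosen for a high value of this share, so it is no check of the estimate. Depth is not a deposited figure, and the sampling variance of replicate pairs rests on it.

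Genes with at least 1 FPKM in at least 3 libraries of a fit were kept (14716 in HuH-7, 14987 in JHH-7, 16731 in both), and log2(FPKM + 1) was fitted with limma 3.58.1 (trend and robust, with statmod 1.5.0 in R 4.3.3) over all groups of a line, or of both lines for differences between lines and for the control comparison. Tests were two-sided, with Benjamini-Hochberg adjustment over all genes and a threshold of 0.05. The labels call replicates biological without naming separate cultures, so p-values measure the spread between these samples. The numbers of the replicates did not pair libraries: correlations of same-numbered deviations ran from -0.2062 to 0.0841, with none of 48 over 0.1.

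The fit was tested on simulated data for the comparison of HuH-7 sgKLB with sgNTC. Of log2 changes of 0.5, 1 and 2 it called 30%, 66% and 100%, with 4 false calls among 117. The simulated noise was independent between genes and held no GC trend. Far fewer genes were changed than in the data, where this comparison called 2591. These shares are therefore not estimates of recovery or false calls in the data. The members and lists were chosen with earlier results of these data known. The genes with the largest changes among those called, up to 4 a direction, were named in each comparison; others were named by role after their values were seen. Alternatives were TPM scaling, quantile normalization, a pseudocount of 0.1, no filter, a correction for length and GC content, a replicate block, fitting only the groups compared, and leaving out each library. Promoter sequences are from RefSeq (GRCh38.p14), and gene positions from GENCODE 29 (GRCh38).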

Additional observations from a re-analysis of the deposited data

Results flagged for a closer look

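Changes from sgNTC that differed between JHH-7 and HuH-7 are listed here because limma's test of the difference itself passed (adjusted p under 0.05 over 16731 genes); values are log2 changes in JHH-7 minus those in HuH-7. For sgKLB the difference was positive for SDF2L1 1.38, CRELD2 1.09, PDIA4 0.86, MANF 0.82, CALR 0.82, PDIA6 0.43, SEC61B 0.42, PDIA3 0.39 and DNAJB11 0.39, and negative for ERN1 -2.59, XBP1 -1.19, HERPUD1 -1.18, ATF6 -0.98, SEL1L -0.93 and DNAJB9 -0.64.

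For sgFGFR4 the difference was positive for CALR 0.71, SDF2L1 0.66, PDIA4 0.58, CRELD2 0.53, PDIA3 0.35 and PDIA6 0.34, and negative for ERN1 -1.01 and ATF6 -0.57. For sgFGFR3/4 it was positive for CALR 0.64, SDF2L1 0.60, PDIA4 0.53, CRELD2 0.44, PDIA3 0.40 and PDIA6 0.32, and negative for DNAJB9 -0.84, ERN1 -0.82, ATF6 -0.52 and CREB3L3 -0.31. CALR, PDIA4, PDIA3, PDIA6, SDF2L1 and CRELD2 were on the positive side and ERN1 and ATF6 on the negative side for all 3 guides; the 3 differences of a line share their sgNTC libraries. SEL1L, whose difference for sgKLB is given above, read 28.4, 19.7 and 22.5 FPKM in HuH-7 sgNTC and 25.1, 33.5 and 28.5 in sgKLB, and 35.9, 31.1 and 30.9 in JHH-7 sgNTC and 26.8, 16.9 and 19.4 in sgKLB, so the sgKLB libraries overlapped the control in HuH-7 and lay below it in JHH-7.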

How the results depend on the processing

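Of 209 calls of a member in a comparison, 139 were made in every alternative fit and 54 were lost by leaving out some library. Among 2915 alternative fits the sign turned in 2, both with the correction for length and GC content: ERP44 between JHH-7 sgFGFR1/3/4 and sgFGFR3/4 (-0.036, adjusted p 0.813 in limma) and PDIA3 between JHH-7 sgKLB and sgFGFR1/3/4 (0.003, adjusted p 0.978); the cause was not tested. Calls were lost in 17 of 209 with TPM scaling, 21 with quantile normalization, 23 with the correction for length and GC content (the 2 with a turned sign included), 31 with no filter, 2 with a pseudocount of 0.1 and 44 when only the groups compared were fitted. Fitting only the groups compared leaves fewer libraries for the spread. It called 0 members in place of 6 for HuH-7 sgFGFR4 (0.00727% of all genes) and 0 of 7 for JHH-7 sgFGFR4 (0.638%). It also called 0 of 6 for JHH-7 sgFGFR3/4 (0.94%) and 0 of 2 between HuH-7 sgFGFR3/4 and sgFGFR4 (0.622%). For differences between lines it called 4 in place of 8 (sgFGFR4) and 5 in place of 10 (sgFGFR3/4). For HuH-7 sgFGFR4 quantile normalization called 3 members and no filter 0, where 0.652% and 0.0034% of all genes were called. For the sgFGFR3/4 line difference each of these 2 settings called 6. TPM scaling moved the median of all genes between the controls from 0.09 to 0.15. Between JHH-7 sgKLB and sgFGFR1/3/4 quantile normalization gave 14 members higher and 12 lower. The correction for length and GC content gave 6 higher and 4 lower for the sgFGFR4 line difference. For HuH-7 sgFGFR4 that correction gave 2 higher and 5 lower (1.45% and 1.02% of all genes). In the fit used above, 4.12% (sgFGFR4) and 7.21% (sgFGFR3/4) of all genes were called in the line differences. Between JHH-7 sgKLB and sgFGFR1/3/4 the share was 35.7%. Shares of all genes under the alternatives are not given here for these comparisons. Their counts are therefore not read as results about the members.

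Leaving out 1 library gave 0 to 12 members for HuH-7 sgFGFR4 (0.00685% to 8.36% of all genes) and 2 to 8 for JHH-7 sgFGFR4 (1.49% to 5.67%). The range was 4 to 6 for JHH-7 sgFGFR3/4 (1.74% to 2.86%) and 0 to 1 between HuH-7 sgFGFR3/4 and sgFGFR4 (0.678% to 0.975%). For the line differences it was 5 to 9 with sgFGFR4 and 5 to 12 with sgFGFR3/4. With all libraries 4.12% and 7.21% of all genes were called there. The shares without 1 library are not all given, so these ranges are not read as results about the members. Leaving out 1 library gave 14 to 17 for HuH-7 sgKLB (12.4% to 15.3%) and 10 to 18 for HuH-7 sgFGFR3/4 (7.9% to 18.8%). It gave 16 to 19 for JHH-7 sgKLB (27% to 30.5%) and 22 to 25 for JHH-7 sgFGFR1/3/4 (31.8% to 37.5%). The replicate numbers did not pair the samples; a replicate block lost 15 of the 209 calls and called 0 members for HuH-7 sgFGFR4, and the other counts stayed within 1.5 times. A member not called is not shown to be unchanged.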
